A study of Mus musculus with 16 samples.

Results

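The mitosis and spindle genes described here are a list of 43 mouse genes whose transcripts are made mainly in G2 and M phase of the cell cycle. The genes were listed by name, by no threshold on measured values, although earlier results of these data were known when the list was drawn up. Of the 43 genes, 38 were measured by a probe set that names 1 gene alone, out of 18820 genes measured in all. Ccnb1, which encodes cyclin B1, had no probe set named for it in the array's gene table. The probe sets of Foxm1, Ube2c, Kif20a and Nusap1 name several genes each, so these members have no value of their own.

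RNA came from RAW264.7, a line of mouse macrophage-like cells that grows continuously in culture, and was hybridised to Affymetrix whole-transcript arrays after 24 h of treatment. There were 4 groups of 4 arrays. The LPS+DHA5HT group received lipopolysaccharide (LPS, a part of the bacterial outer membrane) at 1 µg/ml together with docosahexaenoyl serotonin (DHA5HT, an n-3 fatty acid joined to serotonin) at 1 µM. The LPS group received LPS at 1 µg/ml with vehicle, the DHA5HT group received DHA5HT at 1 µM without LPS, and the control group received vehicle. The labels name the vehicle, ethanol at 0.1% by volume, for the control arrays only. The cells are 1 line with no genetic change between groups, and no label states that replicate arrays were grown as separate cultures. The p-values therefore measure only the spread between these samples, which may be technical.

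A cell enters mitosis when cyclin-dependent kinase 1, bound to its cyclins, is switched on by Cdc25 phosphatases. Aurora and Polo kinases, kinesin motors and kinetochore proteins then build the spindle and attach chromosomes to it, the spindle checkpoint delays anaphase until every chromosome is attached, and the anaphase-promoting complex (APC/C) ends mitosis by marking cyclins and securin for destruction. The genes for these proteins are switched on together late in the cell cycle, and their transcripts are low in cells that have left the cycle. RAW264.7 cells are transformed and proliferate, and bacterial products are known to slow the growth of macrophages in culture.

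All values are log2 intensities as deposited, and a difference of 1 means a factor of 2. The median of 10 macrophage markers lay between 11.45 and 11.71 on the 16 arrays, and that of 16 markers of other cell types between 3.58 and 3.89. Medians do not show single markers. With LPS alone 5 of the 10 macrophage markers were higher and 3 lower (limma, adjusted p under 0.05), against 12.6% and 15.8% of all genes. The mean levels of the 38 mitosis genes on control arrays ran from 6.79 to 11.31. LPS+DHA5HT array 1 carries a title with both agents and a treatment label with DHA5HT alone. The title was followed: on a scale from the control mean to the LPS mean, set by 136 strongly LPS-responsive genes, that array lay at 83.8%. The other 3 arrays of its group lay at 78.5% to 90.8%, and DHA5HT arrays at −4.41% to −1.41%. LPS+DHA5HT array 4 stood apart on the second principal component, at 22.4 against at most 9.36 for any other array. Results that use the LPS+DHA5HT group were therefore also computed without each of these arrays.

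Promoter sequences of 6 members are shown because many G2/M genes share short elements near their start: the cell cycle genes homology region (CHR) and CCAAT boxes. The windows are RefSeq sequences of build GRCm38.p6 that run from 250 bases before to 50 bases after the annotated start, 5′ to 3′ on the gene's strand. Capitals mark the CHR letters TTTGAA and TTCGAA and the letters CCAAT, each searched on both strands (TTCAAA and ATTGG on the opposite one). No 2 matches overlapped in the members' windows. Nuf2 is shown as a member with neither motif in its window. The windows lie at chr10:69352863-69353162 on the minus strand for Cdk1, chr9:70421505-70421804 on the minus strand for Ccnb2, chr7:122159185-122159484 on the plus strand for Plk1, chr19:37376132-37376431 on the plus strand for Kif11, chr7:135716330-135716629 on the minus strand for Mki67 and chr1:169531415-169531714 on the minus strand for Nuf2.
Cdk1: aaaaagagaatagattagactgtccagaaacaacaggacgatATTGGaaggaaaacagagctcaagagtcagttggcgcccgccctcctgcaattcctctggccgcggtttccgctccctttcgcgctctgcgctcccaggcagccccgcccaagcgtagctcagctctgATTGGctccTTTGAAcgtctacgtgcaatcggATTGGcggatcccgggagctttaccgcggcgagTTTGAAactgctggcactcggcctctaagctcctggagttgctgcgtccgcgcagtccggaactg
Ccnb2: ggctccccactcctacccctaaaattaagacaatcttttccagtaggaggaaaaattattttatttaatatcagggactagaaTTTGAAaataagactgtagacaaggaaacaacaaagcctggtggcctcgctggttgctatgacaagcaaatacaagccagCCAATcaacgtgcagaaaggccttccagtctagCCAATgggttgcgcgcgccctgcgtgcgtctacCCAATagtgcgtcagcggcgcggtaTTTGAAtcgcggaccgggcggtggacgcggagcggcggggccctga
Plk1: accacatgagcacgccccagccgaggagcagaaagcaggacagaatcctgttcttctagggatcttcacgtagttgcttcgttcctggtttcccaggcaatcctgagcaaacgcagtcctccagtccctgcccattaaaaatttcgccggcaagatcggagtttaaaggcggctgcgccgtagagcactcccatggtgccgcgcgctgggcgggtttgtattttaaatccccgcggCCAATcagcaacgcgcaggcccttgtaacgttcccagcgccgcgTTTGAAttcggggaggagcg
Kif11: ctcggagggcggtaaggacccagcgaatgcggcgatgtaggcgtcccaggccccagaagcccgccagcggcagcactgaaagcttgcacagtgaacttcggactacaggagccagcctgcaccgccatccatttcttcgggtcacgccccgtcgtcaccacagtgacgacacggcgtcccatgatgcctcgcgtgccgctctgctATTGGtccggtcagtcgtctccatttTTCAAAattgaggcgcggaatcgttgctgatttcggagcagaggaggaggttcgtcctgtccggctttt
Mki67: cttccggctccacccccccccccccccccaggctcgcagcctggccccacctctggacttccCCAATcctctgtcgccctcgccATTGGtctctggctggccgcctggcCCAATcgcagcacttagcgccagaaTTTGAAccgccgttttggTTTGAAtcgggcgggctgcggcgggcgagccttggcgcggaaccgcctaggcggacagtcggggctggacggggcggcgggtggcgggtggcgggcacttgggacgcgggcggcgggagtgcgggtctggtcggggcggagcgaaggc
Nuf2: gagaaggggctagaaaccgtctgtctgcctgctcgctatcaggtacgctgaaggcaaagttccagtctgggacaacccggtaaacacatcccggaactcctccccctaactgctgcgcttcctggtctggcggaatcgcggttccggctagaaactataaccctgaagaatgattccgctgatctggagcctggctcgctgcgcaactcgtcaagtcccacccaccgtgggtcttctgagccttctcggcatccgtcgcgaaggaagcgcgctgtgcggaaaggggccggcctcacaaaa

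Promoter windows were held for 31 of the 38 measured members, 33 windows in all because 2 members have 2. CHR letters stood in 28 of these 33 windows (84.8%), against 19.2% of all 32851 windows of the same length. CCAAT letters stood in 26 (78.8%, against 37.4% of all windows), and both in 25 (75.8%, against 7.52%). In 25 windows (75.8%) CHR letters lay in the last 100 bases, against 5.6% of all windows. Counting the start as base 1 and the base before it as base −1, Cdk1 carried its nearer CHR match from base −15, Kif11 its match from base −19, Ccnb2 its nearer match from base 5 and Plk1 its match from base 31. Mki67 had its 2 CHR matches farther upstream, from bases −116 and −98. A match describes letters in a window, not a bound site. Of the other mitotic genes listed for comparison, 60.6% of windows held CHR letters, and of DNA replication genes 16.7%.

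LPS alone against control asks how the mitosis genes respond to the bacterial product. All 38 measured members were lower in LPS cells, and none was higher. In the fit over all genes (limma, Benjamini-Hochberg adjusted p under 0.05), 15.8% of the 18820 genes were lower and 12.6% higher. Over all genes 2376 were higher and 2970 lower, or 3043 and 2468 with each array centred on its median. The members' median change was −1.01, or 2.01-fold lower, against a median of 0.0041 over all genes. Changes ran from −1.42 for Kif11 to −0.67 for Cdc20, 21 members were at least 2-fold lower, and adjusted p-values lay between 3.74e-08 and 0.00113. For all 38, the 4 LPS arrays lay below the 4 control arrays, as they did for 16.1% of all genes. In such bulk RNA, fewer cells in G2 and M phase and less RNA per cell cannot be told apart.

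**Figure D1:**
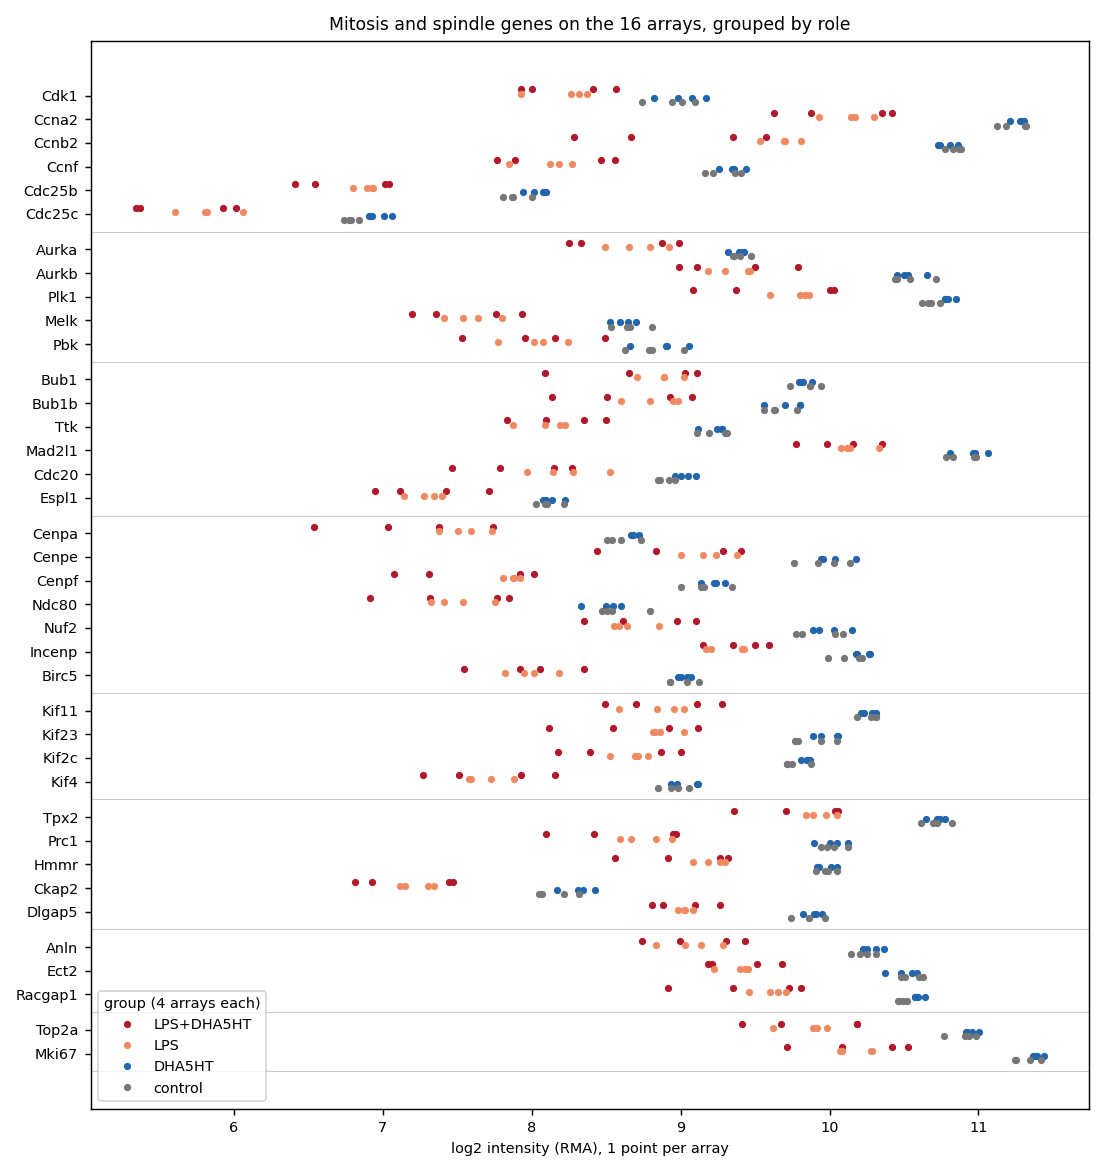
Log2 intensity (x axis) of each of the 38 measured mitosis and spindle genes (rows, grouped by role with lines between roles), 1 point per array, with LPS+DHA5HT, LPS, DHA5HT and control arrays in rows of their own colour from top to bottom. For all 38 genes the 4 LPS arrays lie left of the 4 control arrays and the 4 LPS+DHA5HT arrays left of the 4 DHA5HT arrays.

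Among the 6 measured genes of entry into mitosis, all were lower in LPS cells, with a median change of −1.05. Cdk1, the kinase that drives entry, read 8.37, 7.93, 8.32 and 8.26 on LPS arrays 1 to 4, against 9.09, 8.74, 9.01 and 8.94 on control arrays 1 to 4. Every LPS array lay below every control array, and the change of −0.73 (SE 0.13, adjusted p = 0.000372, limma) was among the smaller ones. Ccnf, cyclin F, which selects proteins for destruction as part of a ubiquitin ligase, read 8.18, 7.85, 8.27 and 8.12 in LPS cells, against 9.36, 9.21, 9.40 and 9.16 in control cells. The groups did not overlap, and Ccnf changed by −1.18 (SE 0.14, adjusted p = 4.68e-06, limma). The other members of this role, cyclin A2 (Ccna2), cyclin B2 (Ccnb2) and the Cdk1-activating phosphatases Cdc25b and Cdc25c, changed by −1.16 to −0.96.

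The 5 mitotic kinases were all lower, with a median change of −0.90. Aurkb, the kinase of the chromosomal passenger complex that corrects faulty attachments, read 9.46, 9.18, 9.46 and 9.30 on LPS arrays, against 10.72, 10.44, 10.54 and 10.45 on control arrays. Plk1, the Polo kinase of centrosome maturation and mitotic progression, read 9.86, 9.60, 9.84 and 9.80 in LPS cells, against 10.74, 10.66, 10.68 and 10.62 in control cells. Aurka, the Aurora kinase of the spindle poles, read 8.92, 8.49, 8.79 and 8.65 in LPS cells, against 9.47, 9.35, 9.40 and 9.36 in control cells. No LPS array reached a control array for any of these 3 kinases. The change was −1.19 (SE 0.13, adjusted p = 1.71e-06, limma) for Aurkb. It was −0.90 (SE 0.15, adjusted p = 0.000159, limma) for Plk1. Aurka changed by −0.68 (SE 0.13, adjusted p = 0.000666, limma), the second smallest change of the 38. Melk and Pbk, which encode protein kinases found in dividing cells, changed by −1.06 and −0.78.

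Among the 6 measured genes of the spindle checkpoint and of the exit from metaphase, all were lower, with a median change of −0.82. Cdc20, the APC/C activator that the checkpoint holds back, read 8.53, 7.97, 8.15 and 8.28 on LPS arrays, against 8.92, 8.85, 8.86 and 8.96 on control arrays. Its groups did not overlap, and its change of −0.67 (SE 0.14, adjusted p = 0.00113, limma) was the smallest of the list. Mad2l1, the checkpoint protein that binds Cdc20, read 10.33, 10.08, 10.12 and 10.14 in LPS cells, against 10.99, 10.83, 10.97 and 10.78 in control cells. Here too the groups lay apart, and the change was −0.72 (SE 0.10, adjusted p = 2.28e-05, limma). The checkpoint kinases Bub1 and Ttk, the checkpoint protein Bub1b and separase (Espl1), the protease that frees sister chromatids, changed by −1.13 to −0.82.

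The 7 genes of the centromere, the kinetochore and the passenger complex had a median change of −1.04, and all were lower. Cenpf, a large kinetochore protein that accumulates in G2, read 7.88, 7.81, 7.92 and 7.87 on LPS arrays, against 9.34, 9.00, 9.16 and 9.14 on control arrays. The LPS arrays differed by little among themselves and lay well below the controls, with a change of −1.29 (SE 0.15, adjusted p = 3.18e-06, limma). Nuf2, a subunit of the NDC80 complex that grips microtubule ends, read 8.85, 8.59, 8.55 and 8.64 in LPS cells, against 10.09, 9.78, 10.04 and 9.81 in control cells. Its change was −1.27 (SE 0.13, adjusted p = 7.31e-07, limma), and the groups were apart. Birc5, survivin, a subunit of the passenger complex, read 8.18, 7.82, 8.01 and 7.95 in LPS cells, against 9.04, 8.93, 9.12 and 8.93 in control cells. No array of the LPS group reached the control group, and the change was −1.01 (SE 0.12, adjusted p = 3.94e-06, limma). The other 4 genes, for the centromeric histone Cenpa, the kinetochore motor Cenpe, the NDC80 subunit Ndc80 and the passenger scaffold Incenp, changed by −1.07 to −0.77.

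The 4 measured kinesin motors were all at least 2-fold lower, with a median change of −1.17. Kif11, the motor that pushes the spindle poles apart, read 9.02, 8.58, 8.95 and 8.84 on LPS arrays, against 10.31, 10.19, 10.31 and 10.28 on control arrays. The control arrays were within a narrow range and the LPS arrays all below it, with a change of −1.42 (SE 0.13, adjusted p = 1.75e-07, limma), or 2.68-fold lower. Kif4, a chromosome-bound kinesin, read 7.72, 7.58, 7.88 and 7.59 in LPS cells, against 9.06, 8.85, 8.94 and 8.98 in control cells. Its groups did not overlap either, and its change was −1.26 (SE 0.14, adjusted p = 1.4e-06, limma). Kif23, a motor of the central spindle, and Kif2c, which takes microtubules apart at their ends, changed by −1.01 and −1.08.

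Among the 5 measured spindle proteins that bind microtubules, all were lower, with a median change of −0.83. Prc1, which bundles microtubules in the central spindle, read 8.94, 8.59, 8.84 and 8.67 on LPS arrays, against 10.12, 9.95, 10.03 and 9.98 on control arrays. The groups lay apart, and Prc1 changed by −1.26 (SE 0.15, adjusted p = 2.74e-06, limma). Tpx2, which activates Aurora A on the spindle, and Hmmr, Ckap2 and Dlgap5, all spindle-associated, changed by −0.94 to −0.77. The 3 cytokinesis genes were lower too. Ect2, which activates RhoA at the cell equator, read 9.45, 9.22, 9.40 and 9.43 in LPS cells, against 10.63, 10.48, 10.60 and 10.51 in control cells. The change of Ect2, −1.18 (SE 0.10, adjusted p = 3.74e-08, limma), had the smallest adjusted p of the list. Anillin (Anln) and Racgap1, a part of centralspindlin, changed by −1.16 and −0.88.

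Both genes of chromosome structure were lower. Mki67, whose protein Ki-67 coats mitotic chromosomes and is used to stain dividing cells, read 10.28, 10.07, 10.29 and 10.09 on LPS arrays, against 11.42, 11.24, 11.25 and 11.34 on control arrays. The groups did not overlap, and the change was −1.13 (SE 0.13, adjusted p = 1.58e-06, limma). Top2a, the topoisomerase that untangles chromosomes, changed by −1.05. Further probe sets naming the same gene existed for 5 members: a second one each for Kif11, Mad2l1, Pbk and Prc1, and 2 more for Top2a. On these 6 probe sets the changes were −1.02 to −0.31, and 1 of them, for Top2a (−0.31, adjusted p = 0.2 by limma over all probe sets), did not pass.

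The second LPS comparison, LPS+DHA5HT against DHA5HT, shares no array with the first. The 2 are still not independent. The fit takes 1 spread per gene from all 16 arrays, and same-numbered arrays of the different groups deviated together. All 38 members were again lower in LPS+DHA5HT cells (limma, adjusted p under 0.05), against 15.7% of all genes lower. All 38 had the 4 LPS+DHA5HT arrays below the 4 DHA5HT arrays, as 15.6% of all genes did. The median change was −1.13, or 2.19-fold lower, 29 members were at least 2-fold lower, and 21 were so in both comparisons. Changes ran from −1.82 for Ccnb2 to −0.78 for Aurka. Across the 38 genes the LPS changes with and without DHA5HT had a Pearson r of 0.693 and a Spearman rho of 0.709, given as a description across genes that share the same 16 arrays. The change with DHA5HT present was 91.0% to 166.4% of the change without it, with a median of 110.6%. The highest share was that of Cdc20, whose change with LPS alone was the smallest. These shares depend on LPS+DHA5HT array 4. Without it the median change with DHA5HT present was −0.98, against −1.01 with LPS alone.

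**Figure D2:**
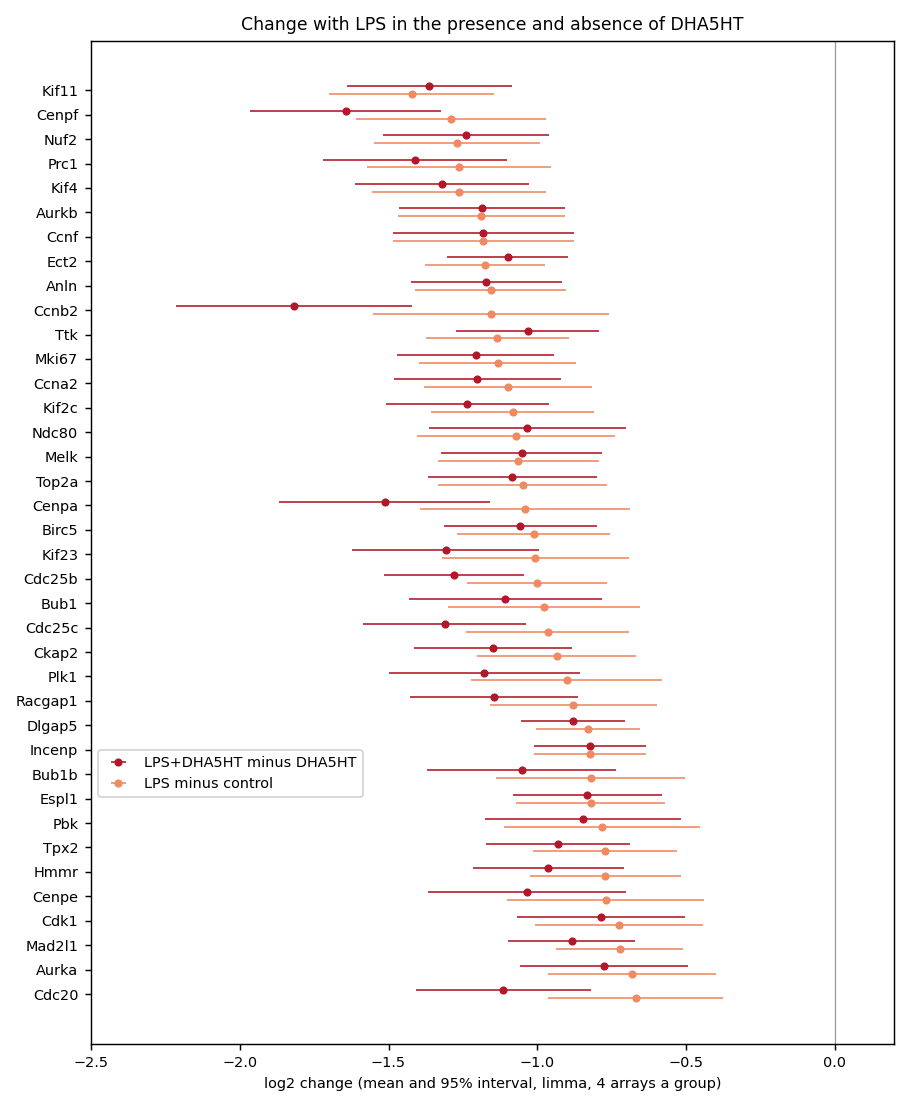
Log2 change (x axis, with 95% interval from limma, 4 arrays a group) of each of the 38 members (rows, ordered by the change with LPS alone) for LPS+DHA5HT minus DHA5HT (dark red) and LPS minus control (orange). All intervals lie below 0, and Ccnb2 has the lowest change with DHA5HT present, at −1.82.

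Ccnb2, a cyclin partner of Cdk1, read 9.57, 8.67, 9.35 and 8.28 on LPS+DHA5HT arrays 1 to 4, against 10.86, 10.74, 10.73 and 10.81 on DHA5HT arrays 1 to 4. The LPS+DHA5HT arrays spread widely but all lay below the DHA5HT arrays, with a change of −1.82 (SE 0.19, adjusted p = 7.62e-07, limma). Cdc25c, a Cdk1-activating phosphatase, read 6.02, 5.37, 5.92 and 5.35 in LPS+DHA5HT cells, against 6.93, 7.06, 7.01 and 6.91 in DHA5HT cells. The groups lay apart, and the change was −1.31 (SE 0.13, adjusted p = 4.6e-07, limma). Cdk1 read 8.57, 8.00, 8.41 and 7.93 in LPS+DHA5HT cells, against 9.17, 8.82, 9.08 and 8.98 in DHA5HT cells. Its change, −0.79 (SE 0.13, adjusted p = 0.000182, limma), was again among the smallest. Plk1 read 10.03, 9.37, 10.00 and 9.08 in LPS+DHA5HT cells, against 10.85, 10.78, 10.80 and 10.78 in DHA5HT cells. It changed by −1.18 (SE 0.15, adjusted p = 1.01e-05, limma), with no overlap. Aurka read 8.99, 8.33, 8.87 and 8.25 in LPS+DHA5HT cells, against 9.42, 9.32, 9.41 and 9.39 in DHA5HT cells. The smallest change of this comparison was that of Aurka, −0.78 (SE 0.13, adjusted p = 0.000205, limma).

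Cenpf read 7.92, 7.31, 8.02 and 7.08 on LPS+DHA5HT arrays, against 9.23, 9.14, 9.30 and 9.24 on DHA5HT arrays. Cenpa, the histone that marks centromeres, read 7.74, 7.03, 7.38 and 6.54 in LPS+DHA5HT cells, against 8.72, 8.68, 8.66 and 8.68 in DHA5HT cells. Both kinetochore genes were lowest on LPS+DHA5HT array 4, and their groups did not overlap. Cenpf changed by −1.64 (SE 0.15, adjusted p = 1.96e-07, limma). Cenpa changed by −1.51 (SE 0.17, adjusted p = 1.73e-06, limma). Birc5 read 8.35, 7.92, 8.06 and 7.55 in LPS+DHA5HT cells, against 9.00, 8.98, 9.07 and 9.04 in DHA5HT cells, and Incenp read 9.60, 9.35, 9.50 and 9.15 in LPS+DHA5HT cells, against 10.27, 10.26, 10.18 and 10.18 in DHA5HT cells. Their groups were apart as well. The change was −1.06 (SE 0.12, adjusted p = 2.63e-06, limma) for Birc5. It was −0.82 (SE 0.09, adjusted p = 1.38e-06, limma) for Incenp.

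Of the motors, Kif11 read 9.28, 8.70, 9.11 and 8.50 on LPS+DHA5HT arrays, against 10.31, 10.28, 10.21 and 10.23 on DHA5HT arrays. Kif23 read 9.12, 8.54, 8.92 and 8.12 in LPS+DHA5HT cells, against 10.05, 9.94, 9.89 and 10.05 in DHA5HT cells. Kif4 read 8.16, 7.51, 7.93 and 7.27 in LPS+DHA5HT cells, against 9.11, 8.98, 9.12 and 8.93 in DHA5HT cells. For all 3 motors every LPS+DHA5HT array lay below every DHA5HT array. The changes were −1.36 (SE 0.13, adjusted p = 3.36e-07, limma) for Kif11. They were −1.31 (SE 0.15, adjusted p = 2.41e-06, limma) for Kif23. Kif4 changed by −1.32 (SE 0.14, adjusted p = 9.11e-07, limma). Prc1 read 8.97, 8.42, 8.95 and 8.09 in LPS+DHA5HT cells, against 10.12, 10.00, 9.90 and 10.05 in DHA5HT cells, and changed by −1.41 (SE 0.15, adjusted p = 8.05e-07, limma). Mki67 read 10.42, 10.09, 10.53 and 9.72 in LPS+DHA5HT cells, against 11.38, 11.39, 11.44 and 11.37 in DHA5HT cells, and changed by −1.21 (SE 0.13, adjusted p = 8.24e-07, limma). Neither gene's groups overlapped.

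LPS+DHA5HT against LPS is the comparison named in the study's design, and asks what DHA5HT adds in LPS-treated cells. None of the 38 members passed the test (limma, adjusted p under 0.05), against 1.79% of all genes called in either direction, while 3 members had an unadjusted p under 0.05, as 13.7% of all genes did. Over all genes 154 were higher and 183 lower, or 110 and 216 with each array centred on its median. Arrays of these 2 groups with the same replicate number deviated together (r = 0.12 to 0.20 over all genes in 4 of 4 pairs), and with the replicate number as a block 647 genes were called in place of 337. Among the members 1, Ccnb2, was then called, against 3.44% of all genes. All 38 genes had overlapping groups, while 3.97% of all genes had non-overlapping groups with LPS+DHA5HT higher and 3.91% with LPS+DHA5HT lower. The median change of the members was −0.07, with 25 below 0 and 13 above, against 49.1% of all genes below 0. This balance rests on single arrays: 36 members were below 0 without LPS+DHA5HT array 1 (median −0.18), 35 without array 3 (−0.15) or without LPS array 2 (−0.11), 19 without LPS+DHA5HT array 2 (0.0006) and 11 without array 4 (0.06). With the fit's 1 spread per gene, the 95% interval of the difference lay within 0.5 of 0 for 32 of the 38 and within 1 for 37. The members' median SD was 0.367 in LPS+DHA5HT and 0.138 in LPS cells. These intervals can therefore be too narrow, and the counts hold only for the shared spread. The exceptions at 0.5 were Ccnb2, Cdc20, Cenpa, Cenpe, Cenpf and Kif23, whose lower bounds were beyond it.

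**Figure D3:**
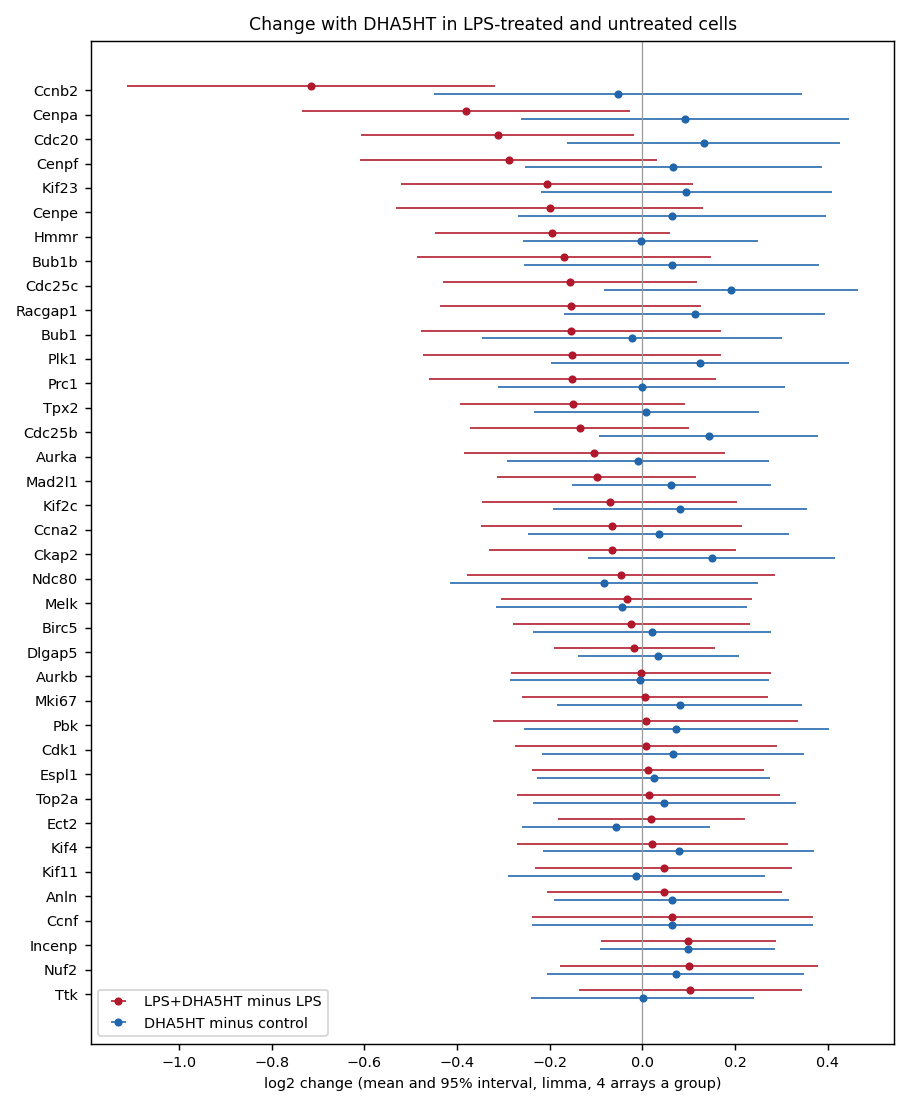
Log2 change (x axis, with 95% interval from limma, 4 arrays a group) of each of the 38 members (rows) for LPS+DHA5HT minus LPS (red) and DHA5HT minus control (blue). The interval of Ccnb2 with LPS runs from −1.11 to −0.32, while those of 32 members with LPS and of all 38 without LPS lie within 0.5 of 0. All intervals use the fit's 1 spread per gene, not each group's own spread.

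Ccnb2 read 9.57, 8.67, 9.35 and 8.28 on LPS+DHA5HT arrays, against 9.81, 9.69, 9.53 and 9.70 on LPS arrays. Array 1 of LPS+DHA5HT lay above the lowest LPS array, so the groups overlapped, but each LPS+DHA5HT array lay below the LPS array of the same number. The difference was −0.71 (SE 0.19, adjusted p = 0.0641, limma). With the replicate number as a block its adjusted p was 0.0449, and with an intensity trend 0.0292 (limma). Without LPS+DHA5HT array 1, whose labels conflict, it was −0.92 with an adjusted p of 0.0112 (limma), and without array 4 it was −0.49 with an adjusted p of 0.143. Over all single arrays left out, the adjusted p of Ccnb2 ran from 0.0112 to 0.156, and it was also under the threshold without LPS+DHA5HT array 3 (0.0372). With the limit at 0.1, Ccnb2 was the 1 member called. Cdc20 and Cenpa, the other genes with an unadjusted p under 0.05, read as follows and were chosen for that p. Cdc20 read 8.27, 7.79, 8.15 and 7.46 in LPS+DHA5HT cells, against 8.53, 7.97, 8.15 and 8.28 in LPS cells. Cenpa read 7.74, 7.03, 7.38 and 6.54 in LPS+DHA5HT cells, against 7.74, 7.38, 7.50 and 7.59 in LPS cells. Both overlapped, with differences of −0.31 for Cdc20 (adjusted p = 0.326, limma) and −0.38 for Cenpa (adjusted p = 0.322, limma).

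Among the members named in every comparison, Cdk1 differed by 0.0079 (SE 0.13, adjusted p = 0.991, limma), Plk1 by −0.15 (SE 0.15, adjusted p = 0.732, limma) and Birc5 by −0.02 (SE 0.12, adjusted p = 0.963, limma). Mki67 read 10.42, 10.09, 10.53 and 9.72 on LPS+DHA5HT arrays, against 10.28, 10.07, 10.29 and 10.09 on LPS arrays, and differed by 0.0063 (SE 0.13, adjusted p = 0.992, limma). The LPS+DHA5HT arrays of Mki67 lay on both sides of the LPS arrays. Aurkb and Pbk had the other differences nearest 0, at −0.0031 and 0.0067, with 95% intervals of −0.28 to 0.28 and −0.32 to 0.34. An interval around 0 bounds the size of a difference only under the fit's 1 spread per gene. It does not show that the conditions act alike.

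The LPS+DHA5HT group was the most variable for these genes. The median SD of a member over 4 arrays was 0.367 in LPS+DHA5HT cells, 0.138 in LPS cells, 0.067 in DHA5HT cells and 0.0914 in control cells. Over all genes the median SD was 0.115, 0.106, 0.105 and 0.107 in the same order of groups. LPS+DHA5HT had the largest SD of the 4 groups for 38 of 38 members. Its array 4 was the lowest of the group for all 38 and its array 1 the highest for 35, with array 3 highest for the other 3. Among LPS arrays, array 1 was highest for 31 members and array 2 lowest for 33. The matching shares over all genes were not counted for these SD and array ranks. Members move together on an array, so these counts are not 38 separate observations. The fit uses 1 spread per gene for all groups, so the wider spread of LPS+DHA5HT enters its intervals only in part. That spread also enters the intervals and p-values of comparisons without the LPS+DHA5HT group.

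The members' median difference from the control mean was −0.73, −1.23, −0.82 and −1.50 on LPS+DHA5HT arrays 1 to 4 and −0.86, −1.15, −0.99 and −1.02 on LPS arrays 1 to 4. It was 0.09, 0.02, 0.04 and 0.04 on DHA5HT arrays 1 to 4, against 0.09, −0.07, 0.01 and −0.04 on control arrays 1 to 4. The lowest LPS+DHA5HT value belongs to the array that stood apart on the second principal component and the highest to the array with conflicting labels. Their part in the spread was not tested. With both arrays left out, an alternative chosen after seeing the data, all 38 members were still lower in LPS+DHA5HT than in DHA5HT cells (median −1.08) and none was called against LPS (median −0.04).

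**Figure D4:**
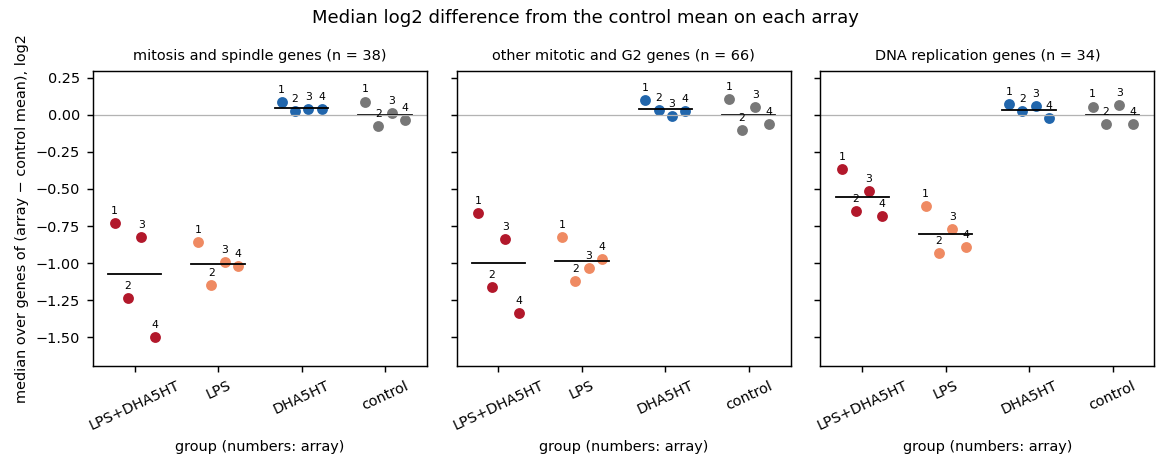
Median over genes of the log2 difference from the control mean on each array (points, numbered by array; bars, group means) for the 38 mitosis and spindle genes, 66 other mitotic and G2 genes and 34 DNA replication genes. For the mitosis genes LPS+DHA5HT arrays range from −1.50 to −0.73, a wider range than the LPS arrays (−1.15 to −0.86). The other mitotic and G2 genes show the same, at −1.34 to −0.66 against −1.12 to −0.82.

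DHA5HT against control asks what DHA5HT does without LPS. No member passed the test (limma), against 0.6% of all genes, and none had an unadjusted p under 0.05, against 9.85% of all genes. The fit's 1 spread per gene includes the LPS+DHA5HT arrays, where the members' median SD was 0.367. It was 0.067 in DHA5HT and 0.0914 in control cells. The members' p-values here can therefore be larger than these groups' own spread would give. Same-numbered arrays deviated together here too (r = 0.13 to 0.18 in 4 of 4 pairs), and with the block no member was called, against 0.951% of all genes (179, or 113 without it). The median difference was 0.06, and the 95% intervals of all 38 lay within 0.5 of 0. Cdk1 read 9.17, 8.82, 9.08 and 8.98 on DHA5HT arrays, against 9.09, 8.74, 9.01 and 8.94 on control arrays, a difference of 0.07 (SE 0.13, adjusted p = 0.923, limma). Mki67 differed by 0.08 (SE 0.13, adjusted p = 0.894, limma), and Birc5 by 0.02 (SE 0.12, adjusted p = 0.979, limma). Cdc25c, Plk1, Cdc20 and Racgap1 had all DHA5HT arrays above all control arrays, 4 of 38 members where 3.03% of all genes did so. Plk1 read 10.85, 10.78, 10.80 and 10.78 in DHA5HT cells, against 10.74, 10.66, 10.68 and 10.62 in control cells, a difference of 0.12 (SE 0.15, adjusted p = 0.854, limma). Ttk, Prc1 and Hmmr were nearest 0, at 0.0005, −0.0021 and −0.0034.

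The DHA5HT effect with LPS minus that without LPS was tested as an interaction. No member passed (limma, adjusted p under 0.05), against 0.329% of all genes, and 2 members had an unadjusted p under 0.05, against 7.65% of all genes. These were Ccnb2, at −0.66 (SE 0.27, adjusted p = 0.552), and Cdc20, at −0.44 (SE 0.20, adjusted p = 0.615). The difference was below 0 for 30 of 38 members, with a median of −0.10, against 51.5% of all genes below 0. Without LPS+DHA5HT array 4 it was below 0 for 16 members (median 0.03), and without LPS+DHA5HT array 1 for 37 (median −0.22). With the replicate block no member passed, against 0.51% of all genes. For the members named in every comparison it was −0.06 for Cdk1, −0.28 for Plk1, −0.04 for Birc5 and −0.07 for Mki67. In simulated data with equal noise in all groups, unlike the members' spread here, this test recovered 48% of changes of 0.5, fewer than any other comparison.

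Other genes of the cell cycle, listed by function, were read beside the members. Of 66 other measured mitotic and G2 genes, 63 were lower with LPS alone, against 15.8% of all genes, with a median of −0.98. Kif15, a spindle kinesin, changed by −1.45 (adjusted p = 1.21e-08, limma), and Wee1, the kinase that restrains Cdk1, by −1.54 (adjusted p = 4.57e-09). Those that did not pass were Cenpw at −0.24, Trip13 at −0.13 and Ckap2l at −0.14. With DHA5HT present in both groups 63 of 66 were again lower, against 15.7% of all genes, with a median of −1.09. Of 34 measured DNA replication genes, 33 were lower with LPS alone (against 15.8% of all genes), with a median of −0.81. With DHA5HT present 32 were lower (against 15.7% of all genes), with a median of −0.59. The exception with LPS alone was Orc1, a subunit of the origin recognition complex, at −0.20 (adjusted p = 0.181). Pcna, the sliding clamp of DNA polymerases, changed by −0.68 (adjusted p = 1.42e-08).

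Genes that act on the cycle from outside mitosis moved in both directions with LPS. Among the 14 Cdk inhibitors and antiproliferative genes 4 were higher and 7 lower, against 12.6% and 15.8% of all genes. Gadd45a and Gadd45b, stress-induced genes, changed by 2.81 and 1.43 (adjusted p = 4.01e-09 and 1.63e-10, limma), Btg1 by 1.17 (adjusted p = 3.94e-07) and Btg2 by 0.30 (adjusted p = 0.00845). Gadd45g, of the same family, was lower instead, with changes of −1.07 to −0.96 over the 14 alternatives run, all of them called. Cdkn2c, an inhibitor of Cdk4 and Cdk6, changed by −2.05 (adjusted p = 1.78e-10). Cdkn1a, which encodes another Cdk inhibitor, differed by 0.12 with LPS alone (adjusted p = 0.299). Cdkn1a was higher in LPS+DHA5HT than in DHA5HT cells by 0.36 (adjusted p = 0.00195, limma), and kept that call in all 14 alternatives run. It was lower in DHA5HT than in control cells, at −0.37 (adjusted p = 0.0396, limma), a call kept in 8 of 14 alternatives and lost with quantile normalization applied again, without DHA5HT array 1, 2 or 3 or without control array 2 or 4 (highest adjusted p = 0.171). Of the 12 measured Rb family, DREAM and MuvB genes, whose products bind promoters of mitotic genes, 9 were lower, against 15.8% of all genes. Among them were Rb1 at −0.73, Rbl1 at −0.98 and Tfdp2 at −1.15. E2f5 and E2f4, which encode E2F factors, were higher by 0.29 and 0.17. Leaving out control array 3 or 4, or any of LPS arrays 1 to 3, ended the call of E2f4 (0.15 to 0.21, highest adjusted p = 0.0912).

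Of the 12 measured G1 and G1/S genes, 10 were lower and 1 higher with LPS, against 15.8% and 12.6% of all genes. Ccnd2, cyclin D2, was higher by 0.87 (adjusted p = 2.29e-05, limma), while E2f8 changed by −1.62 and E2f7 by −1.27, both of them repressors of the E2F family. Of the 13 measured APC/C core genes, 5 were lower, against 15.8% of all genes, and the median of the list was −0.11. Anapc5, a scaffold subunit, changed by −0.54 (adjusted p = 2.54e-05), and Fzr1, which encodes the late APC/C activator Cdh1, by −0.34 (adjusted p = 0.00235).

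In LPS+DHA5HT cells against LPS cells, a few genes of these lists were called where no member was. Over all genes 0.818% were called higher and 0.972% lower. Among the 66 other mitotic genes Ncapd3, a condensin subunit, was higher by 0.29 (adjusted p = 0.0271, limma) and Wee1 by 0.44 (adjusted p = 0.0466). Pttg1, which encodes securin, the inhibitor of separase, was lower, at −0.53 (adjusted p = 0.0278). The call of Ncapd3 was lost without LPS+DHA5HT array 1 or 3 or LPS array 2, 3 or 4 (differences 0.25 to 0.33 over the alternatives, highest adjusted p = 0.0923). The call of Wee1 was lost without LPS+DHA5HT array 1, 3 or 4 or LPS array 2, 3 or 4 and with array weights (differences 0.34 to 0.53 over the alternatives, highest adjusted p = 0.149). The call of Pttg1 was lost without LPS+DHA5HT array 2 or LPS array 1, 2 or 4 (differences −0.65 to −0.39 over the alternatives, highest adjusted p = 0.0819). Of the 34 DNA replication genes 4 were higher, Fen1 by 0.47 (adjusted p = 0.0196), Cdc6 by 0.45 (adjusted p = 0.0267), Chaf1b by 0.34 (adjusted p = 0.0337) and Pcna by 0.23 (adjusted p = 0.0332). The call of Fen1 was lost without LPS+DHA5HT array 1 or LPS array 2 or 4 and with the mean of its probe sets (differences 0.36 to 0.53 over the alternatives, highest adjusted p = 0.0721). The call of Cdc6 was lost without LPS+DHA5HT array 1, 3 or 4 or LPS array 2, 3 or 4 (differences 0.38 to 0.52 over the alternatives, highest adjusted p = 0.091). The call of Chaf1b was lost without LPS+DHA5HT array 1 or 2 or LPS array 2, 3 or 4 (differences 0.26 to 0.40 over the alternatives, highest adjusted p = 0.0977). The call of Pcna was lost without LPS+DHA5HT array 1, 3 or 4 or LPS array 2, 3 or 4 (differences 0.20 to 0.25 over the alternatives, highest adjusted p = 0.0975).

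Of the 12 measured G1 and G1/S genes 3 were higher in LPS+DHA5HT than in LPS cells, against 0.818% of all genes. They were Ccne1, cyclin E1, by 0.52 (adjusted p = 0.00637, limma), E2f8 by 0.59 (adjusted p = 0.0438) and E2f2 by 0.32 (adjusted p = 0.0499). Of the 14 Cdk inhibitors and antiproliferative genes 3 were lower, against 0.972% of all genes. These were Gadd45b at −0.44 (adjusted p = 0.00637), Btg2 at −0.39 (adjusted p = 0.0193) and Cdkn1b, a Cdk inhibitor gene, at −0.26 (adjusted p = 0.0477). The call of Ccne1 was kept in all 14 alternatives run. The call of E2f8 was lost without LPS+DHA5HT array 1, 2, 3 or 4 or LPS array 2, 3 or 4 (differences 0.44 to 0.69 over the alternatives, highest adjusted p = 0.123). The call of E2f2 was lost without LPS+DHA5HT array 1, 3 or 4 or LPS array 1, 2, 3 or 4 and with each array centred on its median and with the mean of its probe sets and with array weights (differences 0.27 to 0.36 over the alternatives, highest adjusted p = 0.152). The call of Gadd45b was kept in all 14 alternatives run. The call of Btg2 was lost without LPS+DHA5HT array 4 or LPS array 4 (differences −0.42 to −0.37 over the alternatives, highest adjusted p = 0.0624). The call of Cdkn1b was lost without LPS+DHA5HT array 1, 2, 3 or 4 or LPS array 1, 2, 3 or 4 and with quantile normalization applied again and with the mean of its probe sets and with array weights (differences −0.28 to −0.17 over the alternatives, highest adjusted p = 0.269).

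With the replicate number as a block, LPS+DHA5HT against LPS called more genes of these lists, and none of the calls above was lost. Of the replication genes 10 of 34 were then higher, against 3.44% of all genes called in either direction. The further ones were Mcm4, Mcm6, Rrm2, Prim1, Chaf1a and Uhrf1, with differences of 0.30 to 0.41 and adjusted p-values of 0.00587 to 0.0291. Cdc25a (0.35), Tfdp1 (0.29), Ccnd1 (0.26) and E2f7 (0.37) were also higher and Gadd45a lower (−0.61), with adjusted p-values of 0.00842 to 0.0486. Without the block the adjusted p-values of these 11 genes lay between 0.0592 and 0.438.

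For the replication list 31 of 34 differences were above 0, with a median of 0.19, against 50.9% of all genes above 0. The median difference from control was lower for the mitosis genes than for the replication genes by 0.36, 0.59, 0.31 and 0.82 on LPS+DHA5HT arrays 1 to 4, against 0.25, 0.21, 0.22 and 0.13 on LPS arrays 1 to 4. Every LPS+DHA5HT array had a larger gap than every LPS array, and this difference was not tested. The members stayed close to the other mitotic genes, with median differences apart by −0.06, −0.07, 0.02 and −0.16 on LPS+DHA5HT arrays 1 to 4. The gap to the replication genes is therefore not particular to the members. The replication medians themselves overlapped, at −0.68 to −0.37 on LPS+DHA5HT arrays and −0.93 to −0.61 on LPS arrays.

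The promoter motifs were set beside the changes as a description. Of the 31 members with a window, 26 had CHR letters in one, and their median change with LPS alone was −1.05, between −1.42 and −0.67. The 5 without them, Melk, Mad2l1, Cenpe, Nuf2 and Birc5, had a median of −1.01, between −1.27 and −0.72. With DHA5HT present, the medians were −1.16 with CHR letters and −1.05 without them. Nuf2, with neither motif in the window printed above, changed by −1.27 with LPS, and Kif11, with 1 of each, by −1.42.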

How the data were processed

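The deposited values are log2 intensities from RMA, per the submitters' processing notes; the version and any filter were not given in the sources used here. By the platform's gene annotation, 21218 of 35556 probe sets named 1 gene alone, and the brightest was kept for each of 18820 genes. Groups followed the titles. limma 3.58.1 (R 4.3.3) fitted 4 group means over 16 arrays (lmFit and eBayes, 12 residual degrees of freedom, two-sided), with Benjamini-Hochberg adjustment over all genes within each comparison and a threshold of 0.05. The number of arrays limits the precision. On simulated data the fit recovered 70% to 76% of changes of 0.5 in the 4 pairwise comparisons and 98% to 99% of changes of 1. The simulated noise was independent and equal in all groups, for genes drawn from the whole array. It lacked the members' wider spread in LPS+DHA5HT and the shared deviations of same-numbered arrays. The fit's 1 spread per gene carries that wider spread into every comparison. These shares therefore do not give the recovery for the members in any of them.

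The members and lists were chosen with earlier results of these data known. Full values were given for Cdk1, Plk1, Mki67 and Birc5. In both LPS comparisons they were also given for the 8 largest changes among called members with non-overlapping groups and the 3 smallest. In LPS+DHA5HT against LPS and in DHA5HT against control, the 3 smallest were given as differences, with full statistics for Mki67 only. Other lists gave up to 4 genes with the smallest p and the minority direction. Cdc20 and Cenpa under LPS+DHA5HT against LPS, Cdkn1a, Gadd45g, and the listed genes that did not pass were chosen after their values were seen. Motifs were searched in RefSeq promoter windows. Titles give each group replicates 1 to 4. Deviations of same-numbered arrays from their group means correlated over 0.1 in 4 of 4 pairs for LPS+DHA5HT with LPS and for DHA5HT with control, but in 3 of 4 for LPS+DHA5HT with DHA5HT and for LPS with control. All 24 pairs correlated above 0, the lowest at 0.07. Of 16 arrays, 15 correlated best on average with arrays of their own number in the other groups. No label says what a number shares, so the pairing comes from the data, and the fit reported first has no block. As alternatives, an intensity trend, a replicate block, a brightness filter, repeated quantile normalization, centring, other probe set rules, array weights, other thresholds, fewer arrays in the fit and leaving out each array were tried. Figures used matplotlib 3.10.9 in Python 3.11.15.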

Additional observations from a re-analysis of the deposited data

How the results depend on the processing

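All 38 members stayed lower in LPS against control and in LPS+DHA5HT against DHA5HT under every alternative run and with every single array left out. The members' median ranged from −1.06 to −0.96 in the first comparison and from −1.24 to −0.98 in the second. In LPS+DHA5HT against LPS it ranged from −0.18 to 0.06, in DHA5HT against control from 0.01 to 0.09, and in the interaction from −0.22 to 0.03, always without a call except for Ccnb2 in LPS+DHA5HT against LPS. That count was 1 (Ccnb2) rather than 0 with a replicate block (adjusted p = 0.0449, limma), an intensity trend (0.0292), only genes above the median gene (0.0359) or an adjusted p under 0.1. Leaving out single arrays gave 0 to 1. The replicate block changed no other member's call. Over all genes the block called 647 in place of 337 in LPS+DHA5HT against LPS, 179 in place of 113 in DHA5HT against control and 96 in place of 62 in the interaction.

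No called difference of a member changed sign. With single arrays left out, 25 of 38 members changed sign in LPS+DHA5HT against LPS, the largest of these differences being −0.17 for Bub1b, 15 in DHA5HT against control (largest 0.07, Cdk1) and 21 in the interaction (largest −0.15, Prc1). Causes were not tested. In DHA5HT against control, Prc1 was 0.0050, 0.01 and 0.0072 with quantile normalization, the mean of probe sets and array weights. Hmmr was 0.0029 with quantile normalization and 0.0048 with array weights, and Ttk −0.0054 with centring. In LPS+DHA5HT against LPS, centring gave −0.0058 for Cdk1, −0.0070 for Pbk and −0.0073 for Mki67. Array weights gave 0.0201 for Aurkb and 0.0082 for Birc5. With LPS+DHA5HT arrays 1 and 4 left out together, Cdk1 was −0.0119 and the interaction of Mki67 0.0462. With single arrays left out in LPS+DHA5HT against LPS, Cdk1 ran from −0.1051 to 0.1077, Aurkb from −0.1507 to 0.1171, Plk1 from −0.2880 to 0.0274, Pbk from −0.1460 to 0.1739, Birc5 from −0.1521 to 0.1165 and Mki67 from −0.1075 to 0.1636. In DHA5HT against control, Cdk1 ran from −0.0020 to 0.1299, Birc5 from −0.0058 to 0.0592, Ttk from −0.0380 to 0.0380, Prc1 from −0.0362 to 0.0380 and Hmmr from −0.0274 to 0.0200. In the interaction, Cdk1 ran from −0.1718 to 0.0409, Birc5 from −0.1725 to 0.0961 and Mki67 from −0.1875 to 0.0836.

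No group of 4 arrays held an outlying array by Dixon's criterion for any member or for the members' median (156 groups checked). Arrays give no counts, so the limit on precision is the number of arrays. Levels of different genes were not compared, beyond printing medians of the cell type markers.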
